A study of Homo sapiens with 8 samples.

Results

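Cells make cholesterol from acetyl-CoA through the mevalonate pathway and make fatty acids from the same precursor, and this account follows the genes of both routes in human skin cancer cells carrying hairpins against 3 Polycomb proteins. The members are a given list of 35 genes: enzymes of sterol synthesis, enzymes of fatty acid synthesis and the proteins that switch both on. A member was measured where the annotation of the array pairs a probe set with its symbol, and the probe set with the highest mean over the 8 arrays was used for a gene with several. This gave 31 of the 35 genes, among 14884 genes measured in all. FDFT1, LSS, CYP51A1 and SC5D had no annotated probe set here and were not analysed. The measured members were 14 enzymes of the sterol arm, 8 of the fatty acid arm, 3 enzymes that supply acetyl-CoA or acetoacetyl-CoA (ACLY, ACSS2, AACS), 5 regulators and carriers (SREBF1, SREBF2, SCAP, INSIG1, STARD4) and LPIN1, an enzyme of glycerolipid synthesis.

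Both routes are controlled by the SREBP transcription factors, which are made as membrane proteins of the endoplasmic reticulum. SCAP carries them to the Golgi, where proteases free the active part, and INSIG proteins hold SCAP back when sterols are plentiful. The factor encoded by SREBF2 is best known for the genes of cholesterol synthesis, and the main products of SREBF1 for those of fatty acid synthesis. In the epidermis, keratinocytes use cholesterol and fatty acids for the lipid layers of the skin barrier.

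RNA came from SCC13, an established line of a human cutaneous squamous cell carcinoma, and was hybridised to whole-transcript arrays. There were 4 groups of 2 arrays: a control hairpin against GFP (shGFP), hairpins against RING1B and BMI1, subunits of Polycomb repressive complex 1, and a hairpin against EZH2, the methyltransferase of Polycomb repressive complex 2. Every group, the control included, carried a hairpin. The labels give neither the number of hairpins or clones behind a group nor whether its arrays were separate cultures. The p-values therefore cover only how far these particular arrays differ, and that spread could be purely technical. Titles of the shEZH2 arrays start with SCCL3 in place of SCC13, so a difference in cells or handling that goes with that prefix cannot be told apart from the hairpin in any shEZH2 value.

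Array medians lay between 5.49 and 5.52 on the log2 scale. EZH2 read 8.95 and 9.03 with shEZH2 and 9.83 and 9.97 with shGFP (log2 fold change -0.91 ± 0.12 SE, adjusted p = 0.0183 by limma). BMI1 and RNF2, which encodes RING1B, had no annotated probe set, so those hairpins were not checked. Of 9 keratinocyte markers 4 were measured (KRT5, KRT14, DSG3 and SFN), and they read 9.04 to 11.57. None passed the test, with values as large as those of the lipid genes: with shEZH2 KRT14 was at -0.57 ± 0.13 (adjusted p = 0.0999), KRT5 at -0.27 ± 0.12, SFN at -0.12 ± 0.09 and DSG3 at 0.43 ± 0.13. With shRING1B the list median was -0.42 (DSG3 -0.58, KRT14 -0.50, KRT5 -0.34), and with shBMI1 it was -0.19. Their part in the members' values was not tested. Of markers of other cells, 4 melanocyte genes read 4.18 to 6.20, 3 adipocyte genes 4.22 to 6.23, 4 hepatocyte genes 4.52 to 6.21 and 3 endothelial genes 5.17 to 7.25. Of 3 leukocyte genes, CD68, a lysosomal protein that many cells make, read 10.75 to 11.09, and LYZ and CD14 read 4.26 to 6.71. MLANA, a melanocyte gene at 4.18 to 4.85, rose with shEZH2 (0.64 ± 0.11, adjusted p = 0.046), while MITF, TYR and PMEL were at 0.00, -0.01 and -0.15. Only DCN and LUM of 7 fibroblast markers were measured, with their mean level at 5.58 (shGFP), 5.89 (shRING1B), 6.49 (shEZH2) and 5.95 (shBMI1). DCN rose with shEZH2 (log2 fold change 0.93 ± 0.10, adjusted p = 0.0109) and LUM was at 0.89 ± 0.23 (adjusted p = 0.12). The part of such cells or of a changed cell state in the shEZH2 values of the lipid genes was not tested. In RNA from a whole culture, fewer cells of a kind and less RNA per cell cannot be told apart.

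The promoters of 6 members are shown because their values carry the results: STARD4, SCD, FADS1, INSIG1 and MSMO1 had the largest differences between shEZH2 and shGFP among members, and the SREBF2 promoter holds the best known SREBP binding sequence. Each is the 250 bases before the start site in RefSeq (GRCh38.p14), printed 5′ to 3′ on the gene's strand. STARD4 is at chr5:111512536-111512785 (minus strand), FADS1 at chr11:61817004-61817253 (minus strand), SCD at chr10:100346983-100347232 (plus strand), INSIG1 at chr7:155297628-155297877 (plus strand), MSMO1 at chr4:165327419-165327668 (plus strand) and SREBF2 at chr22:41832855-41833104 (plus strand). Capitals mark matches on either strand to any of 7 motifs: the classical sterol regulatory element and its looser form TCACNCCAC, the E-box CACGTG, the cyclic AMP response element TGACGTCA, the ATF4-type sequence TTGCATCA, the CCAAT box bound by NF-Y, and GGGCGG bound by Sp1. Matches can overlap, and the looser element contains most of the strict one.
STARD4: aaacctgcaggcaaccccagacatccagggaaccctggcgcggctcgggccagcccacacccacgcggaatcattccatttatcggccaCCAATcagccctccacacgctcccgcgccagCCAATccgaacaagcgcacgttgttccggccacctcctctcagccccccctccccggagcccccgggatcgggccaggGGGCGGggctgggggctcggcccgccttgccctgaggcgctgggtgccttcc
FADS1: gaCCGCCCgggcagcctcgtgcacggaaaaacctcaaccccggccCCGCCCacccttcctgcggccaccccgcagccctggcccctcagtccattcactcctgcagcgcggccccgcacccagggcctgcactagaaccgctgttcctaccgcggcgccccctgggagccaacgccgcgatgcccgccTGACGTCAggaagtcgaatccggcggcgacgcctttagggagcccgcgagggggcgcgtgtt
SCD: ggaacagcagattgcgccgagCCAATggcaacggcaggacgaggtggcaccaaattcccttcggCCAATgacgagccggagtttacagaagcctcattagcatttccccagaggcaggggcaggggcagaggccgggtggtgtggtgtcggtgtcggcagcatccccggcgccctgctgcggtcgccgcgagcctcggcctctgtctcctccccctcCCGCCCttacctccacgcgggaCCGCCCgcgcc
INSIG1: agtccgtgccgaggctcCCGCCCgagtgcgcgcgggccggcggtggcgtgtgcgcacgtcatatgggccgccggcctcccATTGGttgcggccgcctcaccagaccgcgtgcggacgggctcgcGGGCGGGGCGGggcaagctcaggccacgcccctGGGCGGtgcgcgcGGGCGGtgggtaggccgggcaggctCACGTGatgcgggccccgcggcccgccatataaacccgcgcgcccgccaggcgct
MSMO1: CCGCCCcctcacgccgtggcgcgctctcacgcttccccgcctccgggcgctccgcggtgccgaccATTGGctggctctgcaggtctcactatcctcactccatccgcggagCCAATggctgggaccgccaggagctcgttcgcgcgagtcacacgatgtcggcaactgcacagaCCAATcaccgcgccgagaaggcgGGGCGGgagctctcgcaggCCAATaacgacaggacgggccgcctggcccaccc
SREBF2: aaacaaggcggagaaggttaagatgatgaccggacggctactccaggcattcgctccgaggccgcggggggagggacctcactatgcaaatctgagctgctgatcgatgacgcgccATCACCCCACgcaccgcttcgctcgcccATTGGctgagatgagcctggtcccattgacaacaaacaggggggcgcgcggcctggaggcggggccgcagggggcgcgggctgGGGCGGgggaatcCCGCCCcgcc

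Windows of 300 bases, from 250 before to 50 after the start, were found for 28 of the 31 measured members. SQLE, ACAT2 and FASN had none and were not searched. Of the 28, 8 have several start sites, giving 39 windows. The CCAAT box was in 61.5% of member windows and in 34.6% of all 35116 windows in the table (34.3% of windows of genes measured here). GGGCGG was in 84.6% of member windows, against 45% of all windows and 58.1% of those of measured genes. Among members with a window, the strict sterol regulatory element was in that of SREBF2 alone, at positions -134 to -125 from the start. It was in 0.0456% of all windows. The looser form was in 1.13% of all windows and, among members with a window, again only in SREBF2. CACGTG was in the windows of INSIG1, SCAP and ELOVL5 (7.69% of member windows, 7.26% of all, 8.55% of those of measured genes). TGACGTCA was in 2 of the 39 member windows, those of ELOVL5 and FADS1 (5.13%, against 1.85% of all and 2.29% of those of measured genes). TTGCATCA was in 0 member windows (0.866% of all, 0.679% of those of measured genes). A match is a description of letters and not a measured site.

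With shEZH2, STARD4 rose and no other member passed the test over all genes. STARD4 encodes a carrier that moves cholesterol between membranes. It read 6.96 and 6.98 with shGFP, 6.98 and 6.84 with shRING1B, 7.71 and 7.53 with shEZH2 and 7.06 and 7.22 with shBMI1. Both shEZH2 arrays lay above the other 6, and the mean was 7.62 ± 0.13 (SD, n = 2) against 6.97 ± 0.01 (SD, n = 2) with shGFP. This is a 1.57-fold higher level (log2 fold change 0.65 ± 0.10 SE, adjusted p = 0.0423 by limma). So 1 of 31 members was called, where 0.732% of all genes were. The call is close to the threshold: the adjusted p was 0.0526 to 0.259 when any of the 8 arrays was left out, 0.0864 with only the 4 arrays compared, and 0.193 when adjusted over all probe sets, while the log2 value stayed between 0.56 and 0.74.

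**Figure D1:**
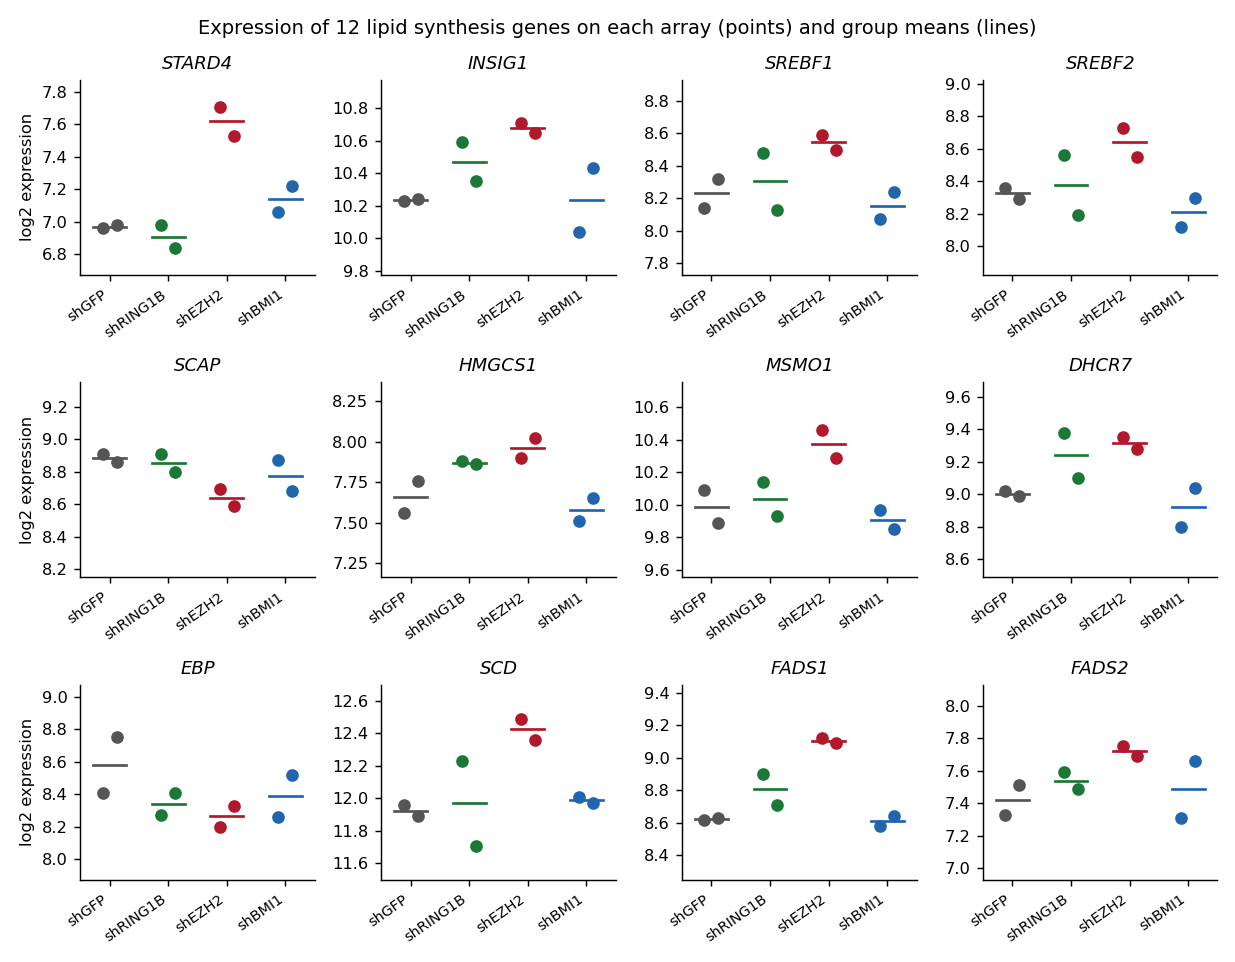
Log2 expression of 12 members on each of the 8 arrays (points; lines are means of 2 arrays), grouped by hairpin, with all panels spanning the same number of log2 units. For STARD4, INSIG1, SREBF1, HMGCS1, MSMO1, SCD, FADS1 and FADS2 both shEZH2 arrays lie above the other 6. For SCAP they lie below both shGFP arrays.

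The regulators did not pass the test with shEZH2, and 4 of the 5 genes in the regulator and carrier group had positive values. INSIG1, the sterol-sensing anchor that is itself an SREBP target, read 10.23 and 10.24 with shGFP and 10.71 and 10.65 with shEZH2 (log2 fold change 0.44 ± 0.14, adjusted p = 0.182). With shRING1B it read 10.59 and 10.35, and with shBMI1 10.04 and 10.43, so the shBMI1 arrays lay on either side of the controls. SREBF1 read 8.14 and 8.32 with shGFP, 8.48 and 8.13 with shRING1B, 8.59 and 8.50 with shEZH2, and 8.07 and 8.24 with shBMI1. Its highest values were those of shEZH2, at 0.31 ± 0.13 (adjusted p = 0.306) over the control, and the shRING1B arrays spanned both control arrays. SREBF2 read 8.36 and 8.29 with shGFP, 8.56 and 8.19 with shRING1B, 8.73 and 8.55 with shEZH2, and 8.12 and 8.30 with shBMI1. Here shEZH2 was at 0.31 ± 0.14 (adjusted p = 0.314), and its lower array fell just below the higher shRING1B array. SCAP, the escort of both factors, went the other way: it read 8.91 and 8.86 with shGFP, 8.91 and 8.80 with shRING1B, 8.69 and 8.59 with shEZH2, and 8.87 and 8.68 with shBMI1. Its shEZH2 value was -0.25 ± 0.10 (adjusted p = 0.275), below both control arrays and overlapping only the shBMI1 arrays.

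In the sterol arm 0 of 14 enzymes passed with shEZH2, 8 had positive and 6 negative values, and the median log2 fold change was 0.07, against -0.01 over all genes. The larger positive values were spread along the pathway. HMGCS1, which makes HMG-CoA at the entry of the pathway, read 7.56 and 7.76 with shGFP, 7.88 and 7.86 with shRING1B, 7.90 and 8.02 with shEZH2, and 7.51 and 7.65 with shBMI1. Its shEZH2 and shRING1B arrays lay above both controls, at 0.30 ± 0.10 (adjusted p = 0.226) and 0.21 ± 0.10 (adjusted p = 0.636). MSMO1, the oxidase that strips methyl groups from the sterol ring, read 10.09 and 9.89 with shGFP, 10.14 and 9.93 with shRING1B, 10.46 and 10.29 with shEZH2, and 9.97 and 9.85 with shBMI1. It had the largest value of the arm, 0.39 ± 0.12 (adjusted p = 0.18), with the shRING1B and control arrays interleaved. DHCR7, the reductase of the final step to cholesterol, read 9.02 and 8.99 with shGFP, 9.38 and 9.10 with shRING1B, 9.35 and 9.28 with shEZH2, and 8.80 and 9.04 with shBMI1. The shEZH2 value was 0.31 ± 0.12 (adjusted p = 0.267), and the higher of the shRING1B arrays exceeded both shEZH2 arrays.

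EBP, the sterol isomerase between these steps, was the most negative enzyme of the arm with shEZH2. It read 8.41 and 8.75 with shGFP, 8.27 and 8.41 with shRING1B, 8.20 and 8.33 with shEZH2, and 8.26 and 8.52 with shBMI1 (shEZH2 value -0.31 ± 0.14, adjusted p = 0.319). The control arrays differed from each other by about as much as this value. Among the 7 enzymes from acetyl-CoA to farnesyl diphosphate the shEZH2 values ran from -0.11 to 0.30 (median 0.03, 4 positive), and among the 7 from squalene to cholesterol from -0.31 to 0.39 (median 0.14, 4 positive). MVK, the mevalonate kinase, was the steadiest member of the arm, with a range of 0.12 log2 units over all 8 arrays. HSD17B7, FDPS and SCD have closely similar copies elsewhere in the genome, so their probe sets may not separate them.

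The fatty acid arm had 0 of 8 enzymes called with shEZH2, and its larger values were those of SCD, FADS1 and FADS2, 3 of its 4 desaturases, which put double bonds into fatty acid chains. SCD, the desaturase that makes oleic acid, read 11.96 and 11.89 with shGFP, 12.23 and 11.71 with shRING1B, 12.49 and 12.36 with shEZH2, and 12.01 and 11.97 with shBMI1. Both shEZH2 arrays were above all others, at 0.50 ± 0.15 (adjusted p = 0.181), and the gap between the shRING1B arrays was the largest of any member with that hairpin. The other probe set of SCD gave 0.62 for the same difference. FADS1, a desaturase of polyunsaturated fatty acids, read 8.62 and 8.63 with shGFP, 8.90 and 8.71 with shRING1B, 9.12 and 9.09 with shEZH2, and 8.58 and 8.64 with shBMI1. The shGFP and shEZH2 arrays lay close within their pairs and far from each other, the shRING1B arrays fell between, and the shEZH2 value was 0.48 ± 0.09 (adjusted p = 0.074). Over its alternatives the adjusted p of FADS1 ran from 0.00676 to 0.307. It passed without the dimmest genes (0.0268), with a trended robust variance (0.00676) and with array weights (0.0459). It did not pass with the fit limited to 4 arrays (0.108), over all probe sets (0.259) or without an array of either group (0.242 to 0.307). FADS2, its partner enzyme and direct neighbour on chromosome 11, read 7.33 and 7.51 with shGFP, 7.59 and 7.49 with shRING1B, 7.75 and 7.69 with shEZH2, and 7.31 and 7.66 with shBMI1. Its shEZH2 arrays were the highest, at 0.30 ± 0.13 (adjusted p = 0.306).

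The other enzymes of the arm had smaller values with shEZH2. ACACA and FASN, the carboxylase and the synthase that build the chain, were at 0.21 ± 0.11 and 0.16 ± 0.11, with both shEZH2 arrays above both controls, and the elongases ELOVL5 and ELOVL6 at -0.04 ± 0.08 and -0.06 ± 0.12. SCD5, the second stearoyl desaturase of human cells, read 7.26 and 7.47 with shGFP, 7.64 and 7.61 with shRING1B, 7.32 and 7.30 with shEZH2, and 7.36 and 7.52 with shBMI1. It is the remaining desaturase, at -0.05 ± 0.10 with shEZH2. Its highest arrays were those of shRING1B (0.26 ± 0.10 over the control, adjusted p = 0.529), where SCD had its highest arrays with shEZH2. Over the arm 5 of 8 values were positive with shEZH2, with a median of 0.18. Of the enzymes that supply acetyl-CoA, ACSS2, which uses acetate, was at 0.31 ± 0.10 (adjusted p = 0.181), and ACLY and AACS were at 0.06 ± 0.08 and 0.04 ± 0.09.

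**Figure D2:**
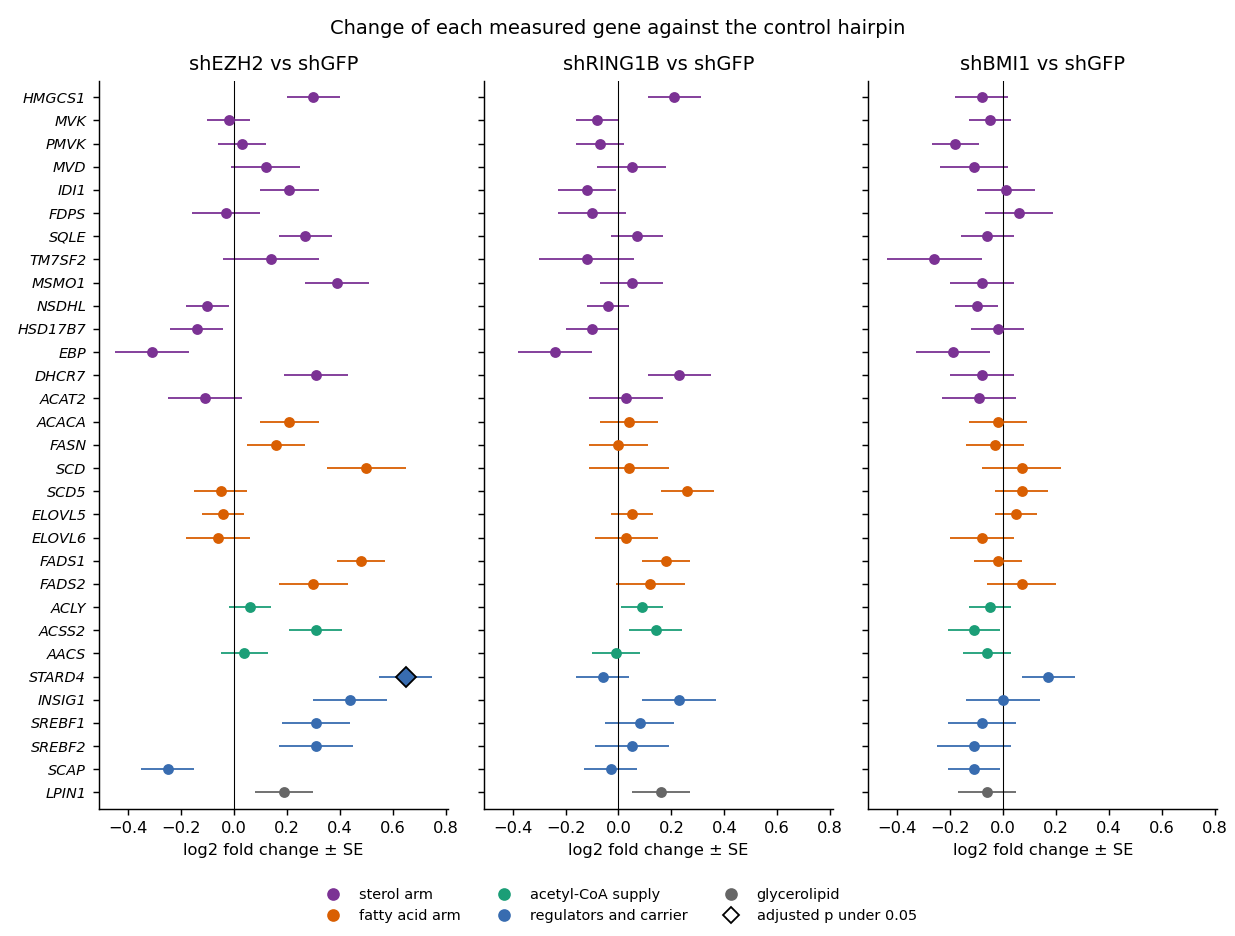
Log2 fold change (bars: SE of the limma fit, 2 arrays per group) of the 31 measured members with each hairpin against shGFP, coloured by group of members. STARD4 with shEZH2, drawn as a diamond, is the only value past an adjusted p of 0.05; with shBMI1 12 of 14 sterol enzymes lie left of 0.

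Counting arrays instead of tests, 18 of 31 members had both shEZH2 arrays above both shGFP arrays, where 23.1% of all genes did, and 5 had both below, where 27% did. Both shEZH2 arrays lay above all 6 other arrays for 11 members (9.24% of all genes): HMGCS1, IDI1, SQLE and MSMO1 of the sterol arm, SCD, FADS1 and FADS2 of the fatty acid arm, ACSS2, STARD4, INSIG1 and SREBF1. IDI1, the isomerase of the isoprenoid unit, and SQLE, the epoxidase that acts on squalene, are named here after their values were seen. ELOVL5 was the 1 member with both shEZH2 arrays below the other 6, where 11.9% of all genes were. With shBMI1, PMVK, ACLY and ACSS2 had both arrays below the other 6 (4.13% of all genes) and 0 members had both above (2.9%). SCD5 alone had both shRING1B arrays above the rest (5.03%) and 0 members had both below (5.08%). NSDHL, a sterol dehydrogenase, alone had both shGFP arrays above the rest (4.16%), and 0 members had both below (3.55%). An unadjusted p under 0.05 was reached by 11 members upward (7.53% of all genes) and by SCAP downward (8.65%). These counts share the arrays that gave the fits and are given as a description, with no test of the list.

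**Figure D3:**
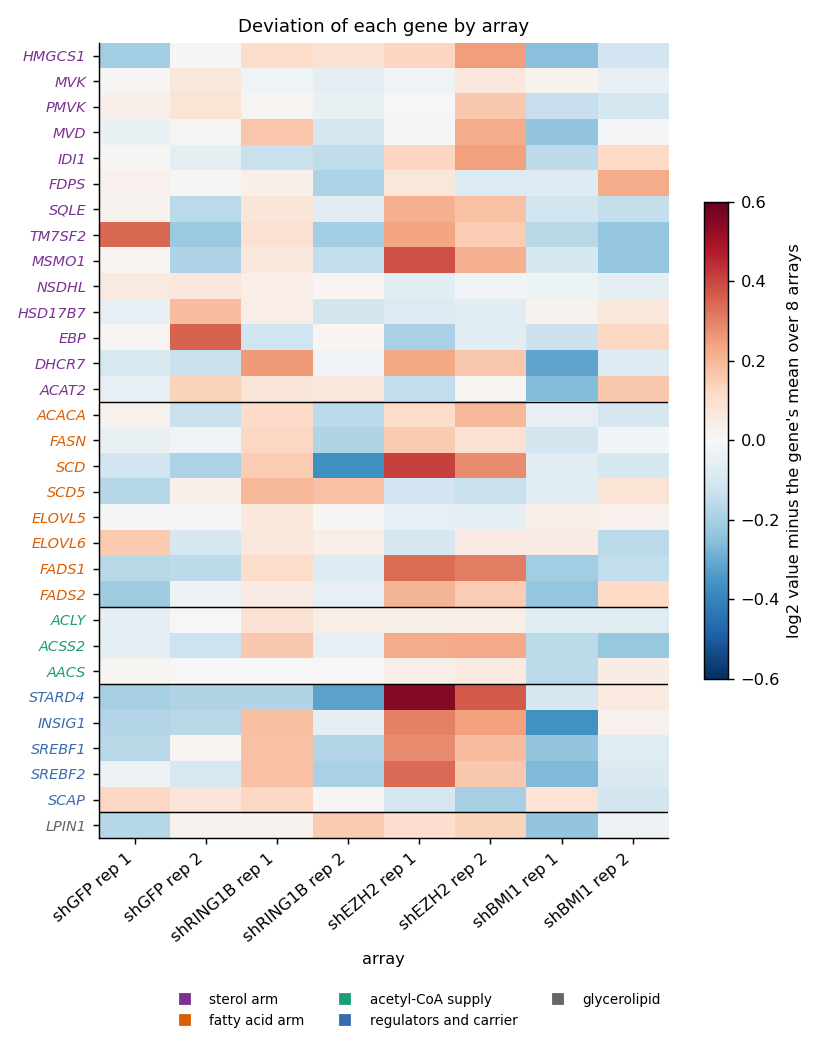
Deviation of each member on each array from its own mean over 8 arrays, in log2 units (red higher, blue lower; rows grouped by role, columns by hairpin). Of 31 members, 13 lie above their mean on each shGFP array and 20 and 24 on the shEZH2 arrays. On the shRING1B arrays 26 and 11 do, and on the shBMI1 arrays 5 and 11. Of all genes, 48.1% to 52.4% lie above their mean on an array.

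With shRING1B no member passed (0 of 31; 0% of all genes passed), and the smallest adjusted p was 0.529, that of SCD5. At an unadjusted p under 0.05 SCD5 was the only member (4.8% of all genes upward), and 0 members reached it downward (3.8%). The sterol arm had a median of -0.05 with 6 of 14 values positive, and the fatty acid arm a median of 0.05 with 8 of 8 values at or above 0. The largest values after SCD5 were those of DHCR7 (0.23 ± 0.12) and INSIG1 (0.23 ± 0.14) upward and EBP (-0.24 ± 0.14) downward. FADS1 was at 0.18 ± 0.09, LPIN1, a phosphatidate phosphatase, at 0.16 ± 0.11, FADS2 at 0.12 ± 0.13 and TM7SF2, a sterol reductase, at -0.12 ± 0.18. Both shRING1B arrays lay above both controls for 9 members (18.2% of all genes) and below for 5 (19.1%).

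The arrays of shRING1B differed from each other across the members. Replicate 1 read higher than replicate 2 for all but 3 of 31 members, including 8 of 8 fatty acid enzymes, where replicate 2 read higher for 48.9% of all genes. The median size of the gap was 0.14 log2 units over members and 0.12 over all genes, and the largest was 0.52, for SCD. In replicate 1, 26 of 31 members lay above their own mean over 8 arrays (51.8% of all genes), and in replicate 2, 11 did (50.4%). The medians with shRING1B rest on this: without replicate 2 the fatty acid arm was at 0.17 and the sterol arm at 0.02 against shGFP.

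With shBMI1 no member passed either (0 of 31; 0% of all genes passed), the smallest adjusted p being 0.929, and 0 members had an unadjusted p under 0.05 (2.89% of all genes upward, 2.69% downward). Values of the sterol arm leaned downward, with 12 of 14 negative and a median of -0.08, where 46.6% of all genes had positive values. The median was -0.03 without shBMI1 replicate 1 and -0.14 without replicate 2, and the median gap between these arrays was 0.15 over members (0.13 over all genes). TM7SF2 had the most negative value, -0.26 ± 0.18. It read 7.02 and 6.45 with shGFP, 6.76 and 6.47 with shRING1B, 6.91 and 6.82 with shEZH2, and 6.51 and 6.44 with shBMI1, so the control arrays differed by more than this value, and without shGFP replicate 1 it was 0.02. PMVK, the phosphomevalonate kinase, read 6.71 and 6.77 with shGFP and 6.55 and 6.58 with shBMI1 (-0.18 ± 0.09), both below both controls. Both arrays lay below both controls for 4 members in all (17.8% of all genes) and above for 3 (14%). EBP was at -0.19 ± 0.14 and MVD, the decarboxylase that makes the isoprenoid unit, at -0.11 ± 0.13. The fatty acid arm had a median of 0.02, with 4 of 8 values positive with ELOVL6 at -0.08 ± 0.12 and SCD, SCD5 and FADS2 each at 0.07 (SE 0.15, 0.10 and 0.13). STARD4 was at 0.17 ± 0.10 and SREBF2 at -0.11 ± 0.14. The group mean of shBMI1 was the lowest of the 4 for 18 of 31 members (23.2% of all genes), and that of shEZH2 the highest for 20 (29.4%).

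Set side by side, the fatty acid arm lay 0.11 log2 units above the sterol arm in median with shEZH2, 0.10 above with shRING1B and 0.10 above with shBMI1. These 3 values share the shGFP arrays, in which the fatty acid arm lay below the sterol arm by 0.09 and 0.07 relative to the mean of all arrays. On the same scale the fatty acid minus sterol difference was 0.06 and -0.00 on the shRING1B arrays, 0.10 and -0.03 on the shEZH2 arrays and 0.07 and -0.01 on the shBMI1 arrays. Both shGFP arrays were thus below the 6 arrays of the Polycomb hairpins. The shEZH2 arrays differed from each other by more than the shEZH2 gap, and those of shRING1B and of shBMI1 by less than their gaps. Directly between these hairpins the fatty acid minus sterol gap was -0.09 for shRING1B against shEZH2 and -0.05 for shRING1B against shBMI1. It was 0.01 for shEZH2 against shBMI1. No test of these gaps was made.

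**Figure D4:**
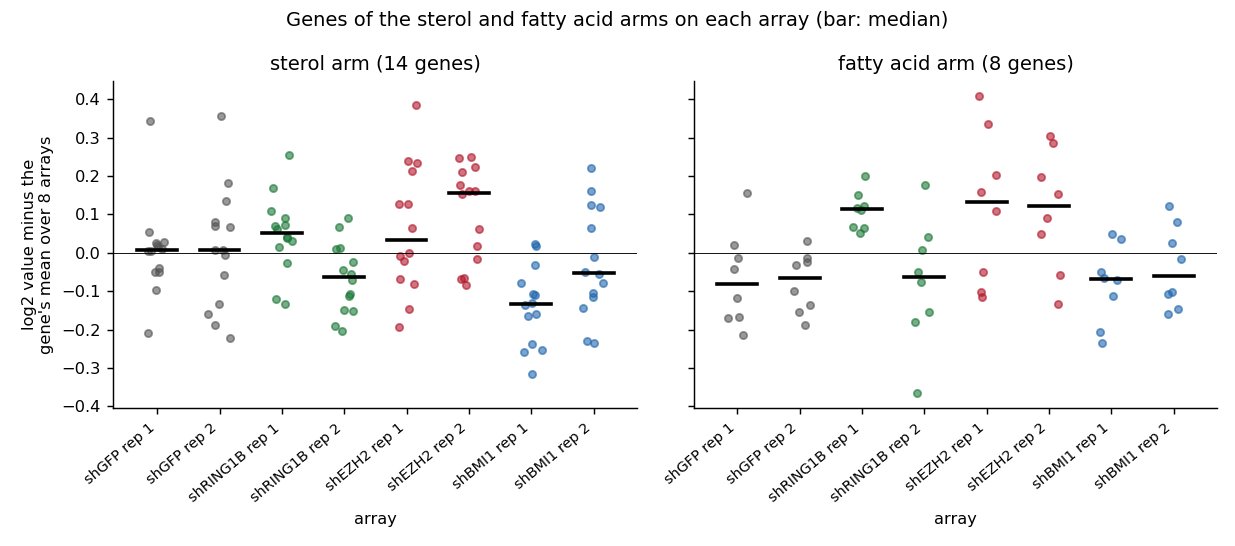
Deviation of each sterol enzyme (left, 14 genes) and fatty acid enzyme (right, 8 genes) from its mean over 8 arrays, in log2 units, on each array (bar: median). The fatty acid medians are 0.13 and 0.12 with shEZH2 and -0.08 and -0.07 with shGFP; the sterol medians are 0.03 and 0.16 with shEZH2 and 0.01 on both shGFP arrays.

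Between the Polycomb hairpins, STARD4 was lower with shRING1B than with shEZH2 (log2 fold change -0.71 ± 0.10, 1.64-fold, adjusted p = 0.0305 by limma). So 1 of 31 members was called, where 0.578% of all genes were (0.356% lower). This call was lost without either array of shRING1B, shEZH2 or shGFP (adjusted p = 0.0627 to 0.239) and stayed without either shBMI1 array (0.0471). SCD was at -0.46 ± 0.15, MSMO1 at -0.34 ± 0.12, IDI1 at -0.33 ± 0.11 and SCD5 at 0.31 ± 0.10 in the same comparison, none of them past the test. An unadjusted p under 0.05 was reached by 5 members downward (7.35% of all genes) and 1 upward (8.22%), and 14 members had both shRING1B arrays below both shEZH2 arrays (22.6%), with 5 above (25.6%). For shEZH2 against shBMI1, 0 members passed (0.974% of all genes did, 0.692% higher and 0.282% lower), and the smallest adjusted p was that of FADS1, at 0.50 ± 0.09 (adjusted p = 0.0557). In that comparison 24 of 31 values were positive (48.9% of all genes). Both shEZH2 arrays lay above both shBMI1 arrays for 20 members (22.9% of all genes) and below for 3 (24.1%). An unadjusted p under 0.05 was reached by 11 members upward (7.75% of all genes) and 0 downward (7.32%). For shRING1B against shBMI1 again 0 members passed (0.0134% of all genes), and the largest value was 0.31 ± 0.12, for DHCR7. Here too 24 of 31 values were positive (51.2% of all genes). The shEZH2 and shRING1B comparisons share the shBMI1 arrays, so their counts are not separate observations. Both shRING1B arrays lay above both shBMI1 arrays for 10 members (19.3% of all genes) and below for 1, STARD4 (17.1%). An unadjusted p under 0.05 was reached by 3 members upward, HMGCS1, DHCR7 and ACSS2 (5.21% of all genes), and by 0 downward (3.98%).

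Among other lipid genes, 25 of 46 on a list of sterol handling, uptake and fatty acid handling genes were measured, and 1 rose with shEZH2, where 0.558% of all genes did. This was ACSL1, which activates long-chain fatty acids by joining them to coenzyme A. It read 8.96 and 8.85 with shGFP, 9.18 and 9.04 with shRING1B, 9.54 and 9.56 with shEZH2, and 8.86 on both shBMI1 arrays. The shEZH2 arrays were above all others, 1.57-fold over shGFP (log2 fold change 0.65 ± 0.09, adjusted p = 0.0235) and 1.62-fold over shBMI1 (0.69 ± 0.09, adjusted p = 0.0157), where 0.692% of all genes were called higher. Both calls were lost without either shEZH2 array or either array of the group compared with it (adjusted p = 0.0838 to 0.185). ELOVL4, the elongase of very long chains in the skin barrier, was at 0.44 ± 0.09 (adjusted p = 0.0853) and CPT1A, the gate of fatty acid oxidation in mitochondria, at 0.43 ± 0.20 (adjusted p = 0.336). THRSP, a promoter of fatty acid synthesis in fat and liver, read 5.33 and 5.43 with shGFP, 5.42 and 5.34 with shRING1B, 4.97 and 4.98 with shEZH2, and 5.12 and 5.05 with shBMI1. Its shEZH2 arrays were the lowest of the 8 (-0.40 ± 0.09, adjusted p = 0.0892), and its shBMI1 arrays were also below both controls. The THRSP probe set is dim: all 8 of its readings lay below the array medians of 5.49 to 5.52. The whole list had a median of -0.01 with shEZH2, with 12 of 25 values positive, and it had 0 genes past the test with shRING1B or shBMI1. With shRING1B, CPT1A was at 0.22 ± 0.20, ACSL1 at 0.21 ± 0.09 and ACSL5, a related synthetase, at 0.19 ± 0.13. The ACSL5 probe set is dim as well, reading 4.66 to 5.21 over the 8 arrays, below the array medians. With shBMI1, CPT1A was at -0.35 ± 0.20, THRSP at -0.29 ± 0.09 and ELOVL7 at -0.23 ± 0.13.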

How the data were processed

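Each deposited log2 value is the authors' RMA estimate for a probe set (RMA and limma are named in the submitters' processing notes). For the versions, the probe set library and the genome build, the sources used here give nothing. RMA by design equalises the arrays' distributions, which hides a shift shared by most genes, and it compresses differences of dim probe sets. Array values are not counts, so the number of arrays limits the precision.

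Of 53617 probe sets, 16098 had 1 gene symbol, updated through RefSeq, and 37519 had none and were left out. The probe set with the highest mean was kept for each of 14884 genes. No arrays held identical values. Groups came from the hairpin label and replicate numbers from the titles. A mean per group was fitted over all 8 arrays with limma 3.58.1 in R 4.3.3 (4 residual degrees of freedom, no replicate block, no filter). Two-sided p-values were adjusted by Benjamini-Hochberg over the genes of each comparison, and those under 0.05 were called. Errors are SE for fold changes and SD for group means. An exact permutation test of 2 against 2 arrays cannot go below p = 0.333 and was not used. The steps were tested on simulated data.

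The members and lists were chosen with earlier results of these data known. The rule for describing members array by array took those called, the regulators and carrier, and the largest absolute values in each comparison with shGFP. These were the values of 4 sterol, 3 fatty acid and 2 other members. Of the members so chosen, MVD, ELOVL6 and LPIN1 are given by fold change alone, and PMVK on the shGFP and shBMI1 arrays alone. Other genes of the pathway list are named where called or among its 3 largest values. Other members named were chosen after their values were seen. Alternatives were a replicate block, only the arrays compared, the fit without shEZH2, quantile normalization, median centring, no dim genes (lowest 30%), array weights, a trended robust variance, probe sets averaged per gene, adjustment over all probe sets, other members in the arms, and leaving out each array.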

Additional observations from a re-analysis of the deposited data

How the results depend on the processing

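Arrays give no depth, and 2 per group limit the precision. The arm medians moved by less than the spread between replicates under the alternatives run, except without shRING1B replicate 2 for shRING1B against shGFP. That spread was 0.07 for the sterol arm and 0.06 for the fatty acid arm. It is close to or above the size of every median but the 0.18 of the fatty acid arm with shEZH2. For the other medians this rule therefore cannot show stability. Leaving out each array gave sterol medians of 0.03 to 0.10 with shEZH2, -0.09 to 0.02 with shRING1B and -0.14 to -0.03 with shBMI1 against shGFP, and fatty acid medians of 0.15 to 0.19, 0.02 to 0.17 and 0.00 to 0.03. Members called for shEZH2 against shGFP (1) were 0 with the replicate block, with the fit limited to the 4 arrays, when adjusted over all probe sets and without any 1 array. Beside 409 and 174 genes called in all, they were 2 without the dimmest genes and with array weights (FADS1 and STARD4). Beside 648 genes called in all, they were 4 with the trended robust variance (INSIG1 and MSMO1 too). For shRING1B against shEZH2 (1) they were 0 in the fits limited to 4 arrays or adjusted over all probe sets, and 0 to 1 without 1 array. For shEZH2 against shBMI1 (0) they were 1 after quantile normalization and with array weights (FADS1), beside 146 and 177 genes called in all. They were 3 without the dimmest genes and 7 with the trended robust variance, beside 445 and 640 genes called in all. The main fit called 145 genes in that comparison. In the other comparisons 0 members were called under any alternative.

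Genes called for shEZH2 against shGFP (109) were 39 in the fit limited to 4 arrays, 409 without the dimmest genes (222 higher, 187 lower), 648 with the trended robust variance (281 higher, 367 lower), 174 with array weights, 2 over all probe sets and 0 to 91 without 1 array. For shRING1B against shEZH2 (86) the same settings in order, without array weights, gave 21, 361, 555, 2 and 0 to 75. For shEZH2 against shBMI1 (145) they gave 57, 445, 640, 6 and 2 to 106. For shRING1B against shGFP (0; an unadjusted p under 0.05 was reached by 715 upward and 565 downward) there were 11 without the dimmest genes and 36 with the trended robust variance. For shRING1B against shBMI1 (2) there were 18 and 38 in these, and 0 with the replicate block, the fit limited to 4 arrays, the fit without shEZH2, median centring, array weights, all probe sets and without any 1 array. Deviations on arrays with equal replicate numbers correlated at 0.001 to 0.248. With 2 arrays a group this cannot settle whether the arrays were paired. With the replicate block in limma, STARD4 with shEZH2 was at adjusted p = 0.0608 against shGFP, so that call was lost. For shRING1B against shEZH2 it was at adjusted p = 0.0469, and the block changed no other call of a member. Small values that passed no test turned sign without 1 array: TM7SF2 (from -0.40 to 0.17 with shRING1B, turned at 0.03 and 0.17, and from -0.54 to 0.02 with shBMI1), and with shBMI1 MVD (-0.22 to 0.01), ELOVL6 (-0.21 to 0.04, turned at 0.02 and 0.04), SCD5 (-0.03 to 0.18, turned at -0.03 and -0.00) and FADS2 (-0.11 to 0.24, turned at -0.11 and -0.03). The cause of these changes was not tested.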
